A study of Rattus norvegicus with 6 samples.

Results

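The natriuretic peptide system of the rat heart was described through 7 genes: the peptide genes Nppa, Nppb and Nppc, the receptor genes Npr1, Npr2 and Npr3, and Corin, which encodes a processing protease. They were taken by gene symbol from 15037 named genes on the array, and each of the 7 had a single row there. RNA was profiled on 6 single-channel Clariom S Rat microarrays, 2 for each of 3 groups. TAC-R arrays came from hearts that had been released from TAC, TAC arrays from hearts with transverse aortic constriction, in which a thread tied over a 21-gauge needle narrows the aortic arch, and normal arrays from hearts labelled healthy. All animals were male Sprague-Dawley rats of 10 weeks. The labels do not say how long the constriction or the release lasted, whether the normal hearts are those of the control rats operated on without a ligature, or whether the arrays of a group were separate animals. P-values therefore describe array-to-array spread within groups, and part or all of that spread may be technical.

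The atrial and B-type natriuretic peptides are hormones made mainly by heart muscle cells, released when the wall of the heart is stretched. They lower blood pressure by raising cyclic GMP in kidney and vessel cells. Atrial natriuretic peptide (gene Nppa) and B-type natriuretic peptide (Nppb) act on the guanylyl cyclase receptor encoded by Npr1, C-type natriuretic peptide (Nppc) acts on that encoded by Npr2, and the receptor encoded by Npr3 takes the peptides up and removes them. Corin is a membrane protease of heart muscle cells that cuts pro-atrial natriuretic peptide into its active form. In rodent ventricles, pressure overload is commonly accompanied by more Nppa and Nppb transcript.

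Nppa and Nppb lie next to each other on rat chromosome 5. Because their signals were high and low on the same groups of arrays, their start regions are shown as annotated by RefSeq on the rat assembly GRCr8, from 250 bases before to 50 bases after the transcription start, at chr5:163711934-163712233 for Nppa and chr5:163699758-163700057 for Nppb, both on the plus strand. Capitals mark matches, on either strand, to short motifs of factors known to act on these genes: for GATA factors AGATAA with its variant AGATAG, or TGATAA with its variant TGATAG, for TEAD factors CATTCC, for Nkx2-5 the letters AAGTG, and for the TATA box TATAAA. The motifs were chosen with the sequences seen, and a match is a description, not a binding site.
Nppa: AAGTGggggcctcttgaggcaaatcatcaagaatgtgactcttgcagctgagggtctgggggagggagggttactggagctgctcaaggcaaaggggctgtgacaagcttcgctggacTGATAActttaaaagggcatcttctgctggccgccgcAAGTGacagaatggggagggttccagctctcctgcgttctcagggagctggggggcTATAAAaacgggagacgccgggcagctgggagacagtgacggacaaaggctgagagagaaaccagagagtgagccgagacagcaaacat
Nppb: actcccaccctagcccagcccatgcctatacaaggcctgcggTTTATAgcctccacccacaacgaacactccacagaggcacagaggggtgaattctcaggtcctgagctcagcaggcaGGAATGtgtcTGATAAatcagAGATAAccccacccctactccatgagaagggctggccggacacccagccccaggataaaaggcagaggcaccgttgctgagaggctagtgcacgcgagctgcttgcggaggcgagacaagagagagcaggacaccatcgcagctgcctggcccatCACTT

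Both windows held a GATA motif, 1 in Nppa at position -132 from the start and 2 in Nppb at -121 and -110. A GATA match was present in 30.3% of 33469 RefSeq promoter windows of this length. The TEAD motif was matched once in Nppb, on the minus strand at -131, and not in Nppa, and 14.2% of all windows held it. The Nkx2-5 letters were matched 2 times in Nppa and 1 time in Nppb, and in 46.2% of all windows, so this short motif is common. TATAAA stood at -39 in Nppa on the plus strand and at -208 in Nppb on the minus strand (14.2% of all windows). No CArG box, the motif of serum response factor, was matched in either window (1.64% of all windows). No marked match overlapped another.

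Signals are the deposited log2 values, so a difference of 1 is a 2-fold difference. Arrays of the same group correlated across rows at 0.9913 to 0.9926 and arrays of different groups at 0.9882 to 0.9908. The 95th percentile of 1153 negative control probes, used as the level of background, lay between 8.09 and 8.55 on the 6 arrays, and 73.9% of the 23188 tested rows had a mean below the average of these. The heart muscle genes Myl3 and Mb were at the ceiling of the scale (19.93) on all arrays. One field of the labels speaks of RNA from cultured fibroblasts, and the ventricular muscle markers were above background on all arrays for 5 of 6 genes. Of the 7 natriuretic genes, 3 (Nppa, Nppb and Corin) were above background on all arrays, Npr3 on 5 of 6, and 3 (Nppc, Npr1 and Npr2) on none.

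Across the 3 comparisons, Nppb had the clearest differences. On the arrays of hearts under TAC it was lower than on normal arrays, and on the arrays of released hearts it was higher than on TAC arrays. This order runs against the common finding in pressure overload given above. The groups rest on the labels alone, and whether each array holds the heart it is labelled with was not tested. Nppa had the same order of group means with a wider spread, and Corin was highest under TAC. The receptor genes and Nppc were not called in any comparison. Differences were tested with limma on all 6 arrays and called where the p-value, adjusted by Benjamini-Hochberg across the whole table, was under 0.05. In TAC against normal hearts 1 of 7 members was called, where 0.254% of all rows were called. In TAC-R against TAC hearts 1 of 7 was called, where 0.431% of all rows were. In TAC-R against normal hearts 0 of 7 were called, where 0.0906% of all rows were. The unadjusted limma p was under 0.05 for 2, 3 and 2 members in these comparisons in turn. Of all rows, 10.3%, 11% and 10.7% were under it. In TAC-R against normal hearts the 2 members were Nppa and Nppb. The groups did not overlap for 4 of 7 members in TAC against normal hearts, 4 of 7 in TAC-R against TAC hearts and 3 of 7 in TAC-R against normal hearts, where 43.3%, 40.5% and 40.9% of all rows did not overlap. A count of non-overlap near those shares is no result about the members. The median difference of the 7 genes was 0.01 in TAC against normal hearts, -0.03 in TAC-R against TAC hearts and 0.20 in TAC-R against normal hearts, where the medians over all rows were 0.0017, 0.0045 and 0.0040 log2 units. The comparisons share arrays, so opposite signs in TAC against normal and TAC-R against TAC hearts both rest on the same TAC arrays.

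**Figure D1:**
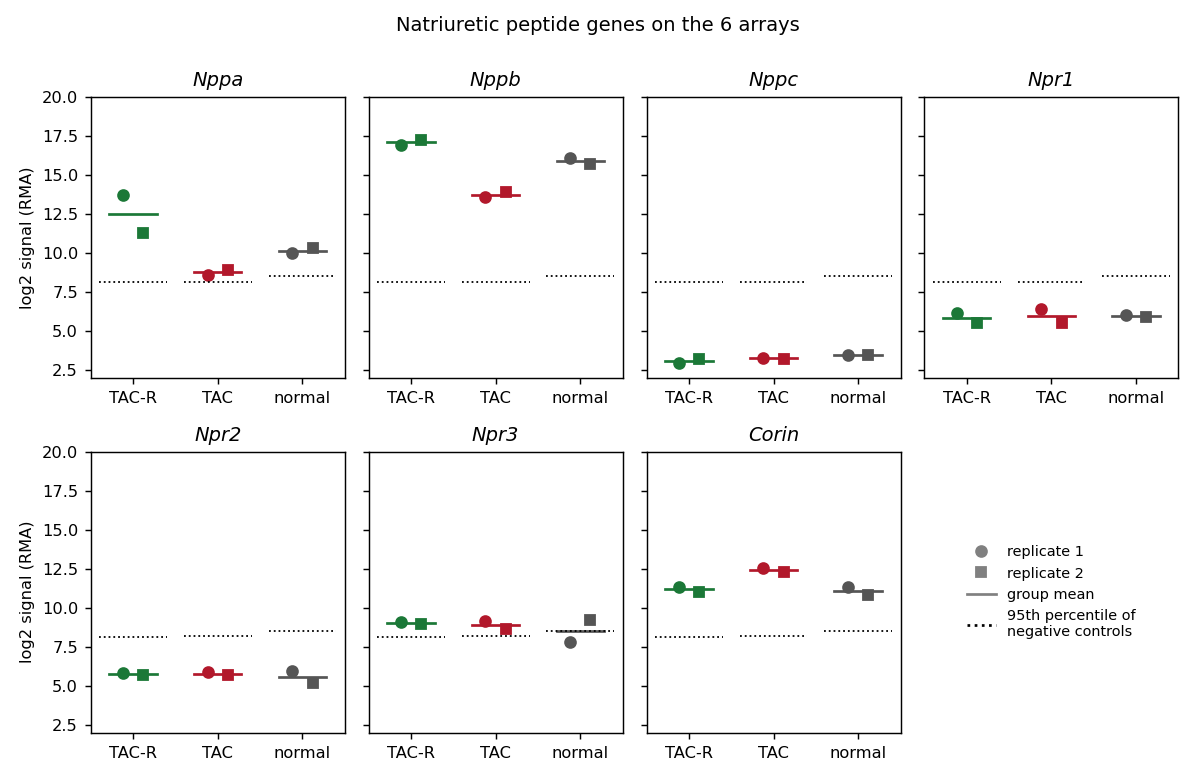
Log2 signal of the 7 natriuretic genes on each array (circles replicate 1, squares replicate 2, bars the group means, dotted lines the mean 95th percentile of the negative controls of that group's arrays). Nppb and Nppa are lowest and Corin is highest on the TAC arrays, and Nppc, Npr1 and Npr2 stay below the dotted line on every array.

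Nppb encodes B-type natriuretic peptide, whose plasma level is used clinically as a sign of wall stress. Its signal was 16.91 and 17.23 on the TAC-R arrays, 13.57 and 13.88 on the TAC arrays and 16.05 and 15.72 on the normal arrays. The 3 groups did not overlap, and the arrays of each group lay close together (SD 0.23, 0.22 and 0.23, n = 2 each). Under TAC Nppb fell by 2.16 ± 0.24 log2 units (difference ± SE, 4.47-fold) relative to normal hearts, with a 95% interval of -2.71 to -1.61 and an adjusted p of 0.0118 in limma. By size this was rank 25 of 23188 rows. The TAC against normal call for Nppb was lost when any of the 4 arrays compared was left out, although the difference stayed between -2.33 and -1.99. Its limma adjusted p was then 0.145 (TAC replicate 1 omitted), 0.0735 (TAC replicate 2), 0.144 (normal replicate 1) and 0.0902 (normal replicate 2). In such whole-tissue RNA, fewer cells of a type and less RNA per cell cannot be told apart.

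Relative to hearts under TAC, released hearts had a Nppb signal higher by 3.35 ± 0.24 log2 units, 10.2-fold (95% interval 2.80 to 3.90, limma adjusted p = 0.00204). This was rank 5 of 23188 by size and rank 3 by p. It passed under every alternative setting that kept all arrays of both groups, with limma adjusted p up to 0.0144. With 1 array left out the difference stayed between 3.19 and 3.51. Leaving out a normal array repeated the fit of only the 2 groups compared, so it is not a separate check. Relative to normal hearts, Nppb on the TAC-R arrays differed by 1.19 ± 0.24, 2.29-fold (95% interval 0.64 to 1.74). Both TAC-R arrays lay above both normal arrays, yet the difference did not pass adjustment over all rows (limma adjusted p = 0.17). With an intensity trend in limma's moderation it passed (adjusted p = 0.00356).

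Nppa encodes atrial natriuretic peptide, abundant in atrial muscle and low in healthy adult ventricle. Its signal was 13.69 and 11.26 on the TAC-R arrays, 8.60 and 8.92 on the TAC arrays and 9.97 and 10.32 on the normal arrays. The groups did not overlap, but the TAC-R arrays stood far apart from each other (SD 1.71, against 0.22 for TAC and 0.25 for normal, n = 2 each). The TAC signals lay just above background, which was 8.22 and 8.12 on those arrays.

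In released against TAC hearts the Nppa difference was 3.71 ± 0.62 log2 units (95% interval 2.29 to 5.13), rank 3 of 23188 by size, and it missed the threshold narrowly (limma adjusted p = 0.0527). It was 2.5 without TAC-R replicate 1 (adjusted p = 0.0556) and 4.92 without TAC-R replicate 2 (adjusted p = 0.00633), so the size rests on which of those arrays is used. It also passed with an intensity trend, robust moderation, ceiling rows or dim rows left out, or median scaling (adjusted p = 0.00283 to 0.0401). It did not pass with quantile normalization (limma adjusted p = 0.0603), the replicate block (0.0955), control rows kept in (0.114) or only the 2 groups compared (0.136). Leaving out a normal array repeated the last of these fits, so it is not a separate check. Without TAC replicate 1 or 2 the difference did not pass either, at 3.56 and 3.87. Against normal hearts the TAC-R difference of Nppa was 2.33 ± 0.62 (95% interval 0.91 to 3.75, limma adjusted p = 0.288). It was 1.12 without TAC-R replicate 1 and 3.54 without TAC-R replicate 2 (adjusted p = 0.347 and 0.0243). Under TAC, Nppa differed from normal by -1.38 ± 0.62 (95% interval -2.81 to 0.04, limma adjusted p = 0.492).

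Of the 9 genes listed as atrial muscle markers, Myl7, Myl4 and Sln were highest on the same TAC-R array as Nppa. Gja5, Dkk3, Stard10, Bmp10, Kcna5 and Tbx18 were not. Myl7, the atrial regulatory light chain of myosin, gave 14.30 and 12.54 on the TAC-R arrays, 7.48 and 7.51 on the TAC arrays and 8.40 and 8.43 on the normal arrays. Myl7 was not above background on any TAC or normal array, so it was at least 38.0-fold higher in TAC-R than in TAC hearts and at least 30.3-fold higher than in normal hearts (limma adjusted p = 0.00315 and 0.0105). The bounds depend on the TAC-R array used: without TAC-R replicate 1 they were 20.6-fold and 16.4-fold, and without TAC-R replicate 2 they were 70.2-fold and 56.0-fold, an omission tried after the data were seen. As with Nppa, TAC-R replicate 1 was the higher of its pair. Myl4, the atrial essential light chain, gave 8.72 and 5.91 on TAC-R arrays, 4.11 and 3.75 on TAC arrays and 4.69 and 5.37 on normal arrays, so that only TAC-R replicate 1 was above background. Sln, the small inhibitor of the atrial calcium pump, was highest on TAC-R replicate 1 as well (6.10), at a signal below background. Gja5, a connexin of atria and conduction tissue, ranged from 10.54 to 10.83 over all arrays, and Dkk3, a secreted Wnt modulator, was highest under TAC (10.77 and 10.68 on TAC-R arrays, 11.33 and 11.37 on TAC arrays and 10.73 and 10.46 on normal arrays). Stard10 gave 8.24 and 7.60 on TAC-R arrays, 7.84 and 7.81 on TAC arrays and 8.37 and 8.58 on normal arrays. Of 9 genes with a row on the atrial list, 4 (Sln, Bmp10, Kcna5 and Tbx18) were below background on every array. Kcna5 had its highest mean on the normal arrays and Tbx18 on the TAC arrays. In TAC-R against TAC hearts Myl7 was called higher, Tbx18 was called lower and 7 did not pass, where 0.431% of all rows were called. The median difference of the list was 0.09 against 0.0045 over all rows. The log2 of the summed signal of the list was 14.58 and 13.22 on TAC-R arrays, 12.21 and 12.26 on TAC arrays and 12.09 and 11.89 on normal arrays. Myl7 makes up most of that sum on the TAC-R arrays, so it does not stand for the list as a whole. The part of atrial tissue in the Nppa difference was not tested.

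**Figure D2:**
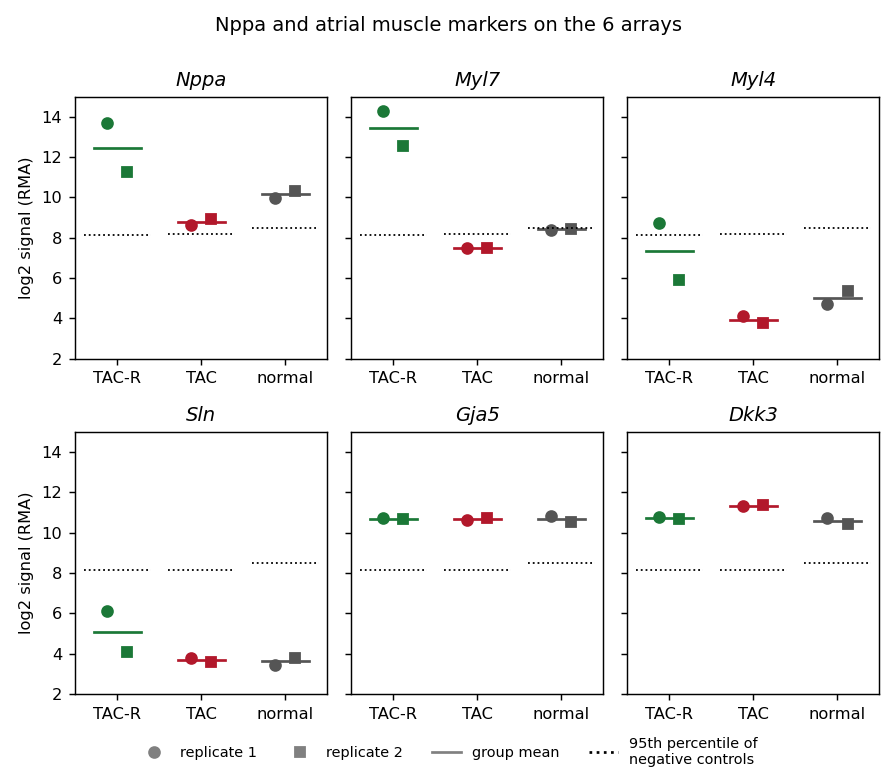
Log2 signal of Nppa and of 5 of the 9 listed atrial muscle markers on each array, drawn as in the plot of the 7 members. The listed markers not drawn (Stard10, Bmp10, Kcna5 and Tbx18) were not highest on TAC-R replicate 1. Nppa, Myl7, Myl4 and Sln are highest on TAC-R replicate 1, whereas Gja5 stays between 10.54 and 10.83 and Dkk3 is highest on the TAC arrays.

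Nppc encodes C-type natriuretic peptide, made mainly by endothelium. It gave 2.98 and 3.19 on TAC-R arrays, 3.31 and 3.19 on TAC arrays and 3.48 and 3.50 on normal arrays. On every array this was under the negative-control median, which ran from 4.39 to 4.63. No difference in Nppc can be sized from such signals (limma adjusted p = 0.529 or more).

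Among the receptors, Npr1, the guanylyl cyclase for atrial and B-type peptides, had signals of 6.13 and 5.50 on TAC-R arrays, 6.40 and 5.52 on TAC arrays and 6.03 and 5.87 on normal arrays. Npr2, the guanylyl cyclase for C-type peptide, had 5.84 and 5.70 on TAC-R arrays, 5.88 and 5.71 on TAC arrays and 5.93 and 5.20 on normal arrays. Both genes lay above the negative-control median but below background on all 6 arrays, and the groups overlapped in each comparison. Whether either receptor transcript differed was not detectable at this signal (limma adjusted p = 0.811 or more for both genes).

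Npr3, the receptor that clears the peptides, gave 9.11 and 8.97 on TAC-R arrays, 9.15 and 8.65 on TAC arrays and 7.79 and 9.21 on normal arrays. The groups overlapped, and the normal arrays were the widest pair (SD 1.00). Npr3 differed by 0.40 ± 0.41 between TAC and normal hearts (95% interval -0.54 to 1.34), by 0.14 ± 0.41 between TAC-R and TAC hearts (-0.80 to 1.08) and by 0.54 ± 0.41 between TAC-R and normal hearts (-0.40 to 1.48), with limma adjusted p of 0.78, 0.939 and 0.677. These intervals still allow differences of more than 2-fold in each comparison. Without normal replicate 1, the only array below background for Npr3, the differences from normal were -0.31 for TAC and -0.17 for TAC-R hearts.

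Corin, the protease that activates atrial natriuretic peptide, gave 11.36 and 11.01 on TAC-R arrays, 12.55 and 12.30 on TAC arrays and 11.36 and 10.82 on normal arrays. Both TAC arrays lay above all other arrays, while the TAC-R and normal arrays overlapped. In TAC against normal hearts Corin differed by 1.33 ± 0.26 log2 units, 2.52-fold (95% interval 0.74 to 1.93), rank 121 of 23188 by size, and did not pass (limma adjusted p = 0.123). In TAC-R against TAC hearts it differed by -1.24 ± 0.26 (95% interval -1.83 to -0.64, limma adjusted p = 0.119). With an intensity trend in the moderation both passed (adjusted p = 0.00927 and 0.0111), and the TAC-R against TAC difference also passed with dim rows left out (0.041). TAC-R and normal hearts differed by 0.10 ± 0.26 (95% interval -0.50 to 0.69, limma adjusted p = 0.928).

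Summed signals of fibroblast, smooth muscle, macrophage and red cell markers were also highest under TAC. A bright gene can make up most of such a sum, as Dcn does for fibroblast, Rgs5 for smooth muscle and Hba-a1 for red cell markers. For 7 fibroblast markers the log2 summed signal was 16.85 and 16.47 on TAC-R arrays, 17.45 and 17.54 on TAC arrays and 17.35 and 17.01 on normal arrays, and 5 of them were above background on all arrays. In TAC-R against TAC hearts all 7 were lower without overlap of the groups, where 40.5% of all rows did not overlap. Of the 7, 2 (Col1a2 and Col3a1) were called, where 0.431% of all rows were. For 6 smooth muscle and pericyte markers the sum was 15.05 and 14.95 on TAC-R arrays, 15.78 and 15.52 on TAC arrays and 15.44 and 15.44 on normal arrays. In TAC against normal hearts 1 of the 6, Cnn1, was called higher, where 0.254% of all rows were called. Its signals were below background on every array. For 4 red cell markers the sum was 20.32 and 20.41 on TAC-R arrays, 20.74 and 20.68 on TAC arrays and 19.55 and 19.63 on normal arrays. In TAC against normal hearts all 4 were higher and 3 were called, where 0.254% of all rows were called. On the TAC arrays Hba-a1 had reached the ceiling, so the sum there is a lower limit. For 5 macrophage markers the sum was 9.13 and 9.12 on TAC-R arrays, 9.79 and 9.54 on TAC arrays and 8.62 and 8.66 on normal arrays. Of the 5, 4 were below background on every array. Adgre1 and Cd163 had their highest mean on the TAC-R arrays (5.41 and 7.23, against 5.03 and 7.02 on TAC arrays), below background. The 7 endothelial markers had their lowest sum after release, at 15.36 and 14.56 on TAC-R arrays, 15.79 and 15.68 on TAC arrays and 15.88 and 15.89 on normal arrays. Cdh5 makes up most of that sum, and 1 of the 7, Emcn, was not lowest after release. The bearing of these cell types on Nppb, Nppa and Corin was not tested.

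The 6 ventricular muscle markers summed to 21.75 and 21.72 on TAC-R arrays, 21.39 and 21.39 on TAC arrays and 21.76 and 21.75 on normal arrays. This sum is saturated, with Myl3 and Mb at the ceiling on all 6 arrays and Myh7 on 2, so it does not measure the amount of ventricular muscle. Among them Myl2, the ventricular regulatory light chain, stayed between 18.80 and 19.12. Myh7, the slow myosin heavy chain, gave 19.93 and 19.91 on TAC-R arrays, 17.87 and 17.76 on TAC arrays and 19.91 and 19.93 on normal arrays. Like Nppb, Myh7 was lowest under TAC, and it was called in TAC against normal and in TAC-R against TAC hearts (limma adjusted p = 0.00627 and 0.00663). Its size is not given, since 2 of its 6 values were at the ceiling.

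**Figure D3:**
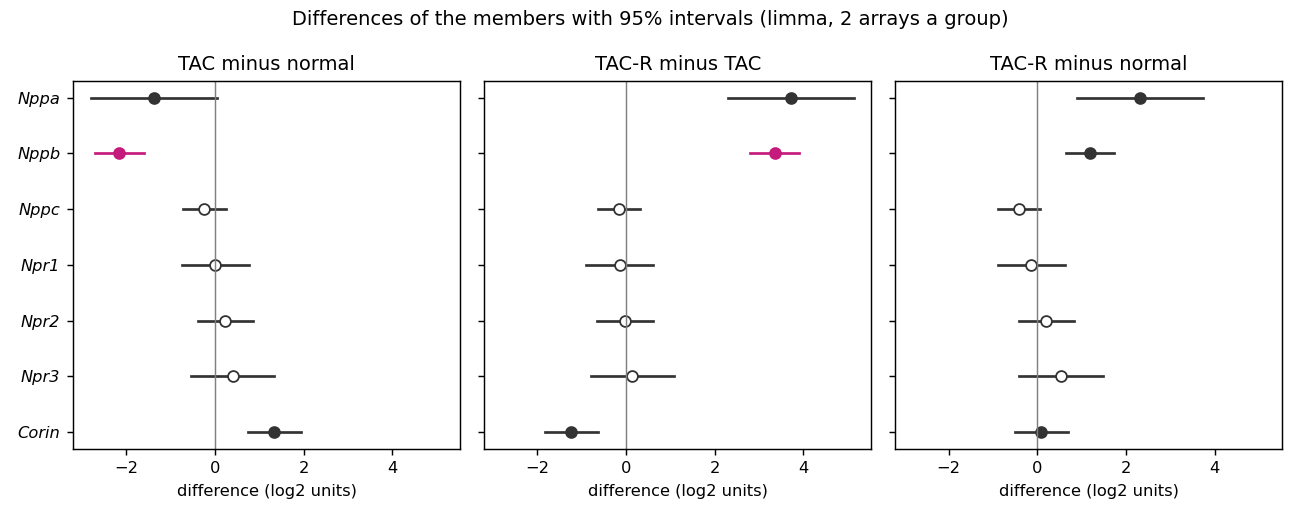
Difference of each natriuretic gene in log2 units in the 3 comparisons, with 95% intervals from limma. Magenta marks calls at an adjusted p under 0.05 (Nppb, in TAC minus normal and TAC-R minus TAC), and open circles mark genes that were not above background on all arrays.

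Of 10 genes that cut or break down the peptides, 0 passed in any comparison by limma, with 1, 1 and 3 at an unadjusted p under 0.05 in TAC against normal, TAC-R against TAC and TAC-R against normal hearts. Over all rows 10.3%, 11% and 10.7% lay under that unadjusted threshold in the same order, which is the background for the pathway counts that follow. Calls made up 0.254%, 0.431% and 0.0906% of all rows, so 0 calls in lists this small is no result about them. The lowest limma adjusted p of the 10 genes was 0.413, 0.184 and 0.305, and 6 were above background on all arrays. Pcsk6, the convertase that activates corin, gave 9.90 and 9.77 on TAC-R arrays, 10.53 and 10.94 on TAC arrays and 10.60 and 10.49 on normal arrays. Pcsk6 was lowest on both TAC-R arrays, with a TAC-R against TAC difference of -0.90 ± 0.23 (limma adjusted p = 0.184). Ide, insulin-degrading enzyme, which also cleaves natriuretic peptides, had a TAC-R against TAC difference of 0.43 ± 0.21 (limma adjusted p = 0.494). Furin, which processes the B-type and C-type precursors, ranged from 9.94 to 10.74, and Pam, an enzyme abundant in atrial secretory granules, from 18.19 to 18.46. Mme, which encodes the degrading enzyme neprilysin, was below background on all arrays.

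Cyclic GMP genes, the downstream part of the pathway, gave 0 calls of 19 in each comparison by limma (0.254%, 0.431% and 0.0906% of all rows). At an unadjusted limma p under 0.05 there were 4, 6 and 2 in the same order (10.3%, 11% and 10.7% of all rows). On every array 14 of the 19 were below background. Prkg1, the cyclic GMP-dependent protein kinase, gave 8.83 and 9.40 on TAC-R arrays, 8.29 and 8.43 on TAC arrays and 9.53 and 9.31 on normal arrays. It was lowest under TAC, close to background, with a TAC against normal difference of -1.06 ± 0.25 (limma adjusted p = 0.21). Pde1a, a phosphodiesterase that breaks down cyclic nucleotides, gave 8.48 and 8.34 on TAC-R arrays, 9.23 and 9.30 on TAC arrays and 8.64 and 8.66 on normal arrays. It was highest under TAC, with a TAC-R against TAC difference of -0.86 ± 0.21 (limma adjusted p = 0.166). The list of other ligands and partners of the clearance receptor had 0 calls of 4, against the same shares of all rows (0, 0 and 1 at an unadjusted p under 0.05 in limma). Gnai1, an inhibitory G protein subunit, had a TAC-R against normal difference of -0.67 ± 0.21 (limma adjusted p = 0.342), and Gnai2 a TAC-R against TAC difference of -0.28 ± 0.24 (limma adjusted p = 0.729). Ostn, which encodes a peptide ligand of the clearance receptor, was below background on all arrays.

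Transcription factors known to act on Nppa and Nppb gave 0 calls of 16 in each comparison by limma, where 0.254%, 0.431% and 0.0906% of all rows were called. The unadjusted limma p was under 0.05 for 3, 1 and 7 of them, against 10.3%, 11% and 10.7% of all rows, and 11 were above background on all arrays. Their median difference was 0.23 in TAC against normal, 0.22 in TAC-R against TAC and 0.43 in TAC-R against normal hearts, against 0.0017, 0.0045 and 0.0040 over all rows, and in TAC-R against normal hearts 10 of 16 were higher and 2 lower without overlap, where 40.9% of all rows did not overlap. Srf, serum response factor, gave 11.70 and 11.33 on TAC-R arrays, 11.57 and 11.55 on TAC arrays and 10.85 and 10.39 on normal arrays. Irx4, a ventricular homeobox factor that is also among the ventricular markers, gave 9.59 and 9.32 on TAC-R arrays, 9.89 and 9.50 on TAC arrays and 8.70 and 8.84 on normal arrays. Both were lowest on the normal arrays, with TAC against normal differences of 0.94 ± 0.25 and 0.92 ± 0.23 (limma adjusted p = 0.27 and 0.255). Neither had the order of Nppb, which was lowest under TAC. Over all 49 pathway genes with a row, 21 were higher and 8 lower without overlap in TAC against normal hearts, 14 and 12 in TAC-R against TAC hearts, and 20 and 13 in TAC-R against normal hearts. Of all rows, 43.3%, 40.5% and 40.9% did not overlap in these comparisons.

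**Figure D4:**
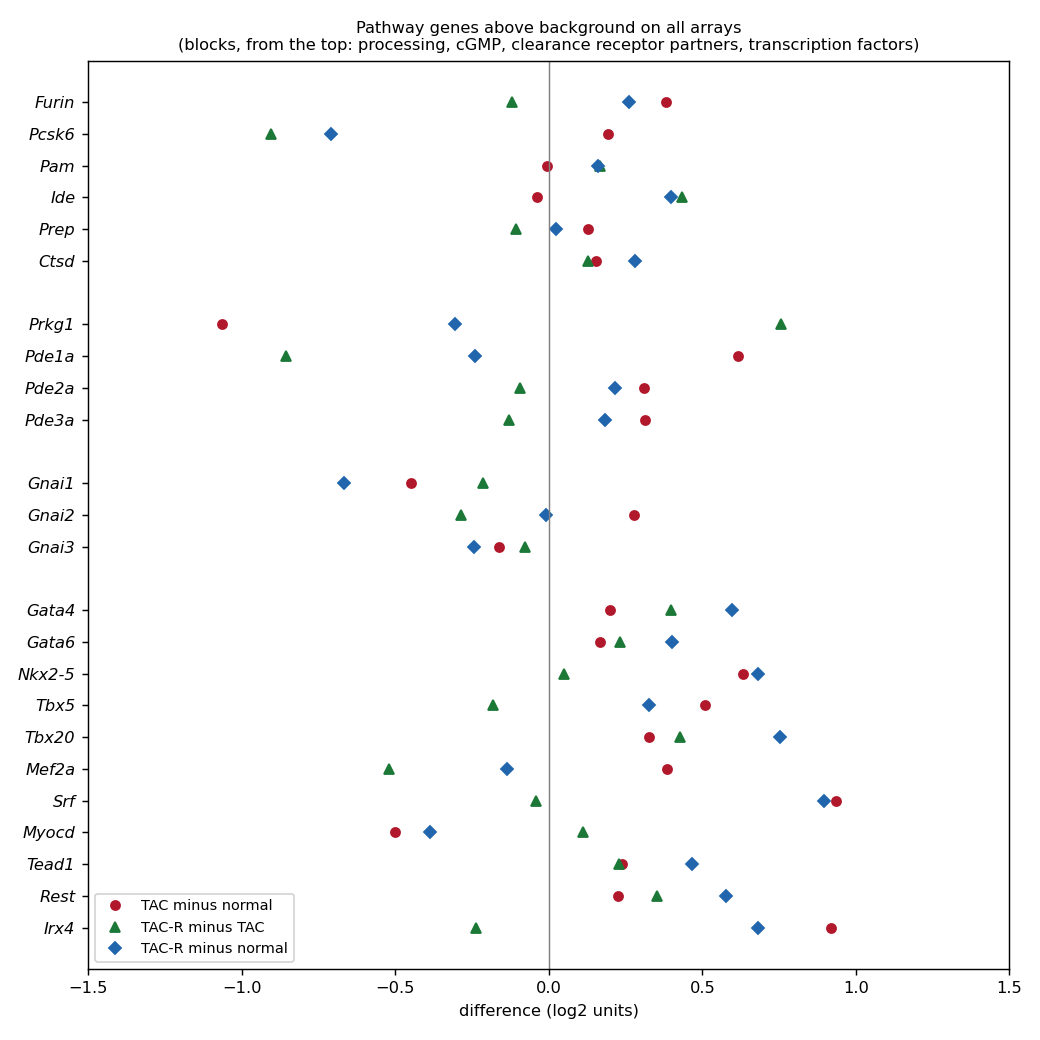
Differences in log2 units of the 24 pathway genes above background on all arrays, with circles for TAC minus normal, triangles for TAC-R minus TAC and diamonds for TAC-R minus normal. None passed the adjusted threshold, which 0.254%, 0.431% and 0.0906% of all rows passed in these comparisons. Prkg1 lies at -1.06 in TAC minus normal and Pde1a at -0.86 in TAC-R minus TAC, comparisons that share the TAC arrays.

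Of 3 RefSeq genes on each side of the Nppb and Nppa pair on chromosome 5, 4 had a row. None of these was called in any comparison, where 0.254%, 0.431% and 0.0906% of all rows were called. Mfn2, a mitochondrial fusion protein, ranged from 15.90 to 16.21 over the 6 arrays. Plod1, a collagen-modifying enzyme, gave 8.81 and 8.39 on TAC-R arrays, 9.15 and 9.24 on TAC arrays and 9.15 and 8.93 on normal arrays, with a TAC-R against TAC difference of -0.60 ± 0.23 (limma adjusted p = 0.393). 2510039O18Rikl ranged from 10.76 to 11.04, and Clcn6, a chloride-proton exchanger of endosomes, was below background on all arrays.

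The 5 genes most like Nppb in pattern, by Pearson r over the 6 arrays among 601 genes whose mean over the arrays exceeded background and that varied by at least 1 log2 unit, were Csrp3 (r = 0.991), Sqstm1 (0.990), Rcan1 (0.985), Zbtb16 (0.984) and Tcap (0.978). The members and genes at the ceiling on any array, Myh7 among them, were not candidates. Csrp3, the muscle LIM protein of the Z-disc, gave 17.26 and 17.44 on TAC-R arrays, 16.14 and 16.26 on TAC arrays and 16.84 and 16.81 on normal arrays. Rcan1, an inhibitor of calcineurin, gave 17.29 and 17.41 on TAC-R arrays, 16.00 and 15.96 on TAC arrays and 16.69 and 16.73 on normal arrays. Tcap, the titin cap protein, Sqstm1, an autophagy receptor, and Zbtb16, a zinc finger transcription factor, had the same order of groups, lowest under TAC. All 5 were chosen by correlation with Nppb on these arrays, so the shared order follows from the choice. Zbtb16 was below background on both TAC arrays (7.82 and 7.75).

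For Nppa the 5 most similar genes were Shisa4 (r = 0.975), the clock gene Per1 (0.970), the kinase gene Stk38l (0.947), Myl7 (0.946) and Asb2 (0.935), a muscle ubiquitin ligase subunit. Myl7 was above background on the TAC-R arrays only, and its mean passed the cutoff for candidates through them. Per1 gave 11.03 and 10.25 on TAC-R arrays, 9.02 and 8.62 on TAC arrays and 9.48 and 9.61 on normal arrays. No gene was on both lists, and each of the 5 similar to Nppa was highest on TAC-R replicate 1, the array that Nppa itself was highest on. They were chosen by correlation with Nppa on these arrays, so the shared peak follows from the choice. These correlations describe 6 points that fall into 3 groups and carry no test.

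**Figure D5:**
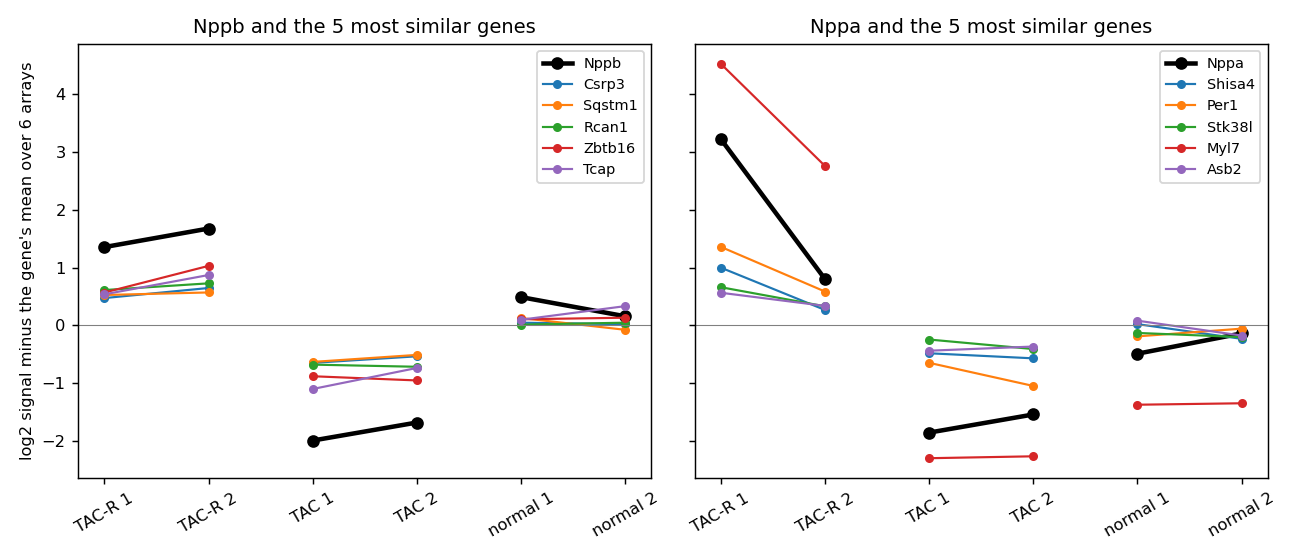
Log2 signal minus each gene's mean over the 6 arrays, for Nppb with its 5 most similar genes (left) and Nppa with its 5 (right), with lines joining the 2 arrays of a group. In the left panel both TAC-R arrays are high together, and in the right panel TAC-R replicate 1 exceeds TAC-R replicate 2 for every gene. The genes were chosen for similarity on these arrays, so the shared patterns follow from the choice.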

How the data were processed

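Rat heart RNA was hybridised to Clariom S Rat arrays. The authors deposited log2 RMA signals (robust multi-array average) from a core-exon analysis in Expression Console, per the labels. Software versions are not given here. RMA equalises the arrays' distributions, so a change common to all transcripts is not visible. Values stop at 19.93.

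The 1646 control rows were left out, and 23188 rows were tested with limma 3.58.1 (R 4.3.3) on the deposited values, with 1 mean per group, 3 residual degrees of freedom and Benjamini-Hochberg adjustment. The number of arrays limits the precision: an exact permutation test of 2 against 2 arrays cannot go below p = 0.33. Platform symbols named 15049 rows. The fit was tested on simulated data. Background is each array's 95th percentile over its negative controls.

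The members, the pathway and marker lists and the tests were chosen with earlier results of these data known. Named genes are all members, in each pathway list the 2 with the largest difference among those above background, and the 5 most similar genes to Nppa and Nppb. Furin, Pam, Mme, Ostn, the flanking genes and the single markers named were picked outside that rule, after values were seen. Promoters were available for 6 of the 7 members. Alternatives changed the moderation, the rows and arrays used, the scaling, the replicate block and the call rule.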

Additional observations from a re-analysis of the deposited data

How the results depend on the processing

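With 7 members, the count called in TAC against normal hearts was 2 with an intensity trend (Corin and Nppb). By a rule of at least 2-fold and p under 0.05 before adjustment it was also 2 (Corin and Nppb). The count no longer held Nppb when any compared array was left out. In TAC-R against TAC hearts it was 3 with an intensity trend or by the unadjusted rule (Corin, Nppa and Nppb). With dim rows left out only 4 members were tested, and the same 3 were called. With robust moderation, ceiling rows left out or median scaling it was 2 (Nppa and Nppb). In TAC-R against normal hearts it was 1 with an intensity trend (Nppb), 2 by the unadjusted rule (Nppa and Nppb), and 0 to 1 when 1 array was left out. For the 49 pathway genes the count was 1 in each comparison by the unadjusted rule (Prkg1, Rgs4 and Fap). With an intensity trend it was 2 in TAC-R against TAC hearts (Mef2a and Pcsk6) and 1 in TAC-R against normal hearts (Tbx20). With dim rows left out 26 of the 49 were tested, and it was 2 in TAC-R against TAC hearts (Pcsk6 and Pde1a). Over all rows, 353, 456 and 331 of 23188 met the unadjusted rule in TAC against normal, TAC-R against TAC and TAC-R against normal hearts. The cause of the moves in the member and pathway counts was not tested.

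Signs turned only among Npr1, Npr2, Npr3 and Corin, and only for differences that were not called. The largest of these was 0.54 ± 0.41, for Npr3 in TAC-R against normal hearts. With quantile normalization Npr1 was -0.0229 in TAC against normal and Npr2 was 0.0106 in TAC-R against TAC hearts. With 1 array left out, the ranges in TAC against normal, TAC-R against TAC and TAC-R against normal hearts were -0.44 to 0.45, -0.59 to 0.30 and -0.45 to 0.18 for Npr1, -0.14 to 0.60, -0.11 to 0.0573 and -0.16 to 0.57 for Npr2, and -0.31 to 1.11, -0.11 to 0.39 and -0.17 to 1.25 for Npr3. Corin ranged from -0.17 to 0.37 in TAC-R against normal hearts. Over all rows, calls in TAC against normal, TAC-R against TAC and TAC-R against normal hearts numbered 59, 100 and 21, against 170, 344 and 156 with an intensity trend 35, 37 and 12 with only the 2 groups compared, and 38, 41 and 9 with control rows kept in. They also moved by over 1.5 times to 203 and 53 with dim rows left out (TAC-R against TAC, TAC-R against normal), where only 6055 rows were tested. In TAC-R against normal hearts they moved to 37 with ceiling rows left out and 54 with median scaling. Leaving out an array of the third group gave the same counts as fitting only the 2 groups, since the array left in it adds no spread. Leaving out a compared array gave fewer calls than that in every comparison.

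The titles give the groups the same replicate numbers and do not say whether these pair arrays. Deviations of same-numbered arrays from their group means correlated across rows at -0.01 (TAC-R with TAC), -0.01 (TAC-R with normal) and 0.01 (TAC with normal). A pairing that acts on few rows would not show in these values, so whether arrays were paired stays unknown. With the replicate block, 1, 1 and 0 members were called, Nppb with adjusted p = 0.0376 in TAC against normal and 0.00956 in TAC-R against TAC hearts, and 36, 47 and 11 rows in all. Using another row of a gene could not be run, since each member has 1 row. An array left out leaves a group with 1 array, which is assumed to vary like the others. Signals near background limit Nppc, Npr1, Npr2 and Npr3.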
